A study of Mus musculus with 6 samples.

Results

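Triadin (TRDN) and the genes that store, release and recover calcium in the sarcoplasmic reticulum of muscle were compared between a MyoD-silenced clone and control cells of C2C12, a mouse myoblast line that fuses into myotubes when serum is lowered. The genes were chosen by name: TRDN, CASQ1, CASQ2, ATP2A1, ATP2A2, RYR1, SLN, CACNA1S, CACNG1 and SRL. Spots with these gene symbols were found for 8 of the 10, each with 1 probe printed in 2 spots, among 1521 named genes and 2466 features in all. ATP2A1, the fast-muscle calcium pump, and SRL, sarcalumenin, had no spot with that symbol and were not analysed here.

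MyoD is one of the transcription factors that turn on the muscle programme. The clone, MyoD(-)cl.A8, carried the mouse MyoD transcript in antisense orientation in pcDNA 3.0 and had been selected with G-418, while no vector is described for the control cells. RNA of the clone and of control cells was compared after 1, 3 and 6 days in differentiating medium with horse serum, on a muscle array built for human genes. On every day the pair was hybridised to 2 arrays of opposite dye orientation, replicate A with the clone in Cy5 and replicate B with the clone in Cy3. The same cells were compared on both arrays of a day, so a day was counted as 1 replicate, n = 3 days, and only 1 clone was used. Nothing in the labels says that the RNAs came from separate cultures, so the p-values measure only how far these samples scatter, and that scatter may be technical. The test of a change shared by the 3 days also counts change between the days as scatter. A gene that moves over the days can therefore have a large p there.

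Each value is a score of clone against control. Its scale is not stated, so no fold changes are given, and positive scores are taken as higher in the clone, a direction that is likely because the labels call the clone the test. Scores are comparisons and not levels, so the muscle identity of the cells could not be checked against absolute marker levels. Fewer cells of a type and less RNA per cell cannot be told apart in such data. Array medians over the features as deposited lay between -0.07 and 0.03, and scores of same-day arrays correlated across features at 0.16 to 0.21. The number of arrays limits the precision. MYOD1 itself had scores of 0.41, -0.36, 1.11, -1.03, 0.50 and 0.26 over the arrays from day 1 to day 6. Which strand its probe binds is unknown here, and the construct itself transcribes MyoD sequence, so these scores do not check the silencing.

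In skeletal muscle, an action potential running down the T-tubule moves the voltage sensor, the L-type calcium channel CACNA1S with its gamma subunit CACNG1. The sensor opens the ryanodine receptor RYR1, which lets calcium out of the sarcoplasmic reticulum. Triadin is a junctional membrane protein that tethers the calcium-storing proteins calsequestrin 1 and 2 (CASQ1, CASQ2) to the ryanodine receptor. The SERCA pumps, among them ATP2A2, return calcium to the store, and the small membrane peptide sarcolipin (SLN) inhibits them. Many of these genes switch on as myoblasts become myotubes.

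MyoD binds E-boxes, short DNA motifs spelled CANNTG. The pattern CANNTG is met on both strands alike, while the middle bases of a motif can differ between them. RefSeq promoter entries on the mouse build GRCm38.p6 matched 4 of the 8 genes: Casq1, Casq2, Ryr1 and Cacna1s. The 250 bases before the start are shown for Casq1 and Cacna1s because each holds CAGCTG, an E-box form that MyoD is known to bind, with every CANNTG in capitals. The Casq1 stretch lies at chr1:172219896-172220145 on the minus strand and the Cacna1s stretch at chr1:136052561-136052810 on the plus strand.
Casq1: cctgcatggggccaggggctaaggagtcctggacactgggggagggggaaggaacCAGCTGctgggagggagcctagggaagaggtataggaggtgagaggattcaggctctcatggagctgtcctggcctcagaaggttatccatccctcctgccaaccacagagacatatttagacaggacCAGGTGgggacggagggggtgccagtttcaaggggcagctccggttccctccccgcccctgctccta
Cacna1s: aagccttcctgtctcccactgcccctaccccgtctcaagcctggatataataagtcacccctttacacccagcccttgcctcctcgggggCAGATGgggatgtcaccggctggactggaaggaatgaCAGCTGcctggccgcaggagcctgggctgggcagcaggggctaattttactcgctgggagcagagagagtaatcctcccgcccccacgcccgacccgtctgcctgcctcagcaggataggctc

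Casq1 had 2 E-boxes in this window, whose first bases lie at -195 and -67 relative to the start, and Cacna1s had 2, at -160 and -123. Casq2 also had 2, neither of them CAGCTG, and Ryr1 had 0. Of 32851 mouse promoters of the same length, 66.2% held a CANNTG and 13.0% held a CAGCTG. These matches describe letters and not binding.

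TRDN (Entrez Gene 10345) stood highest in the clone on day 6. Its scores were 1.35 and 0.63 on the day 1 arrays, 0.34 and -2.22 on the day 3 arrays, and 2.34 and 2.15 on the day 6 arrays, replicate A before B. Day 6 lay above every other array of the gene, and the day 3 replicate B was the only array below 0. The share of all features with the arrays of a day above or below all their others was not counted. The day means were 0.99, -0.94 and 2.24, which ranked TRDN at 252, 2133 and 34 from the top of 2466 features. A gene was counted as standing out on a day when both arrays read at least 2 units on one side of 0. TRDN on day 6 was the only case among the 8 genes. Of all features, 0.689% stood out upward on day 6, and 1.82% in either direction. No gene of the 8 stood out on day 1, when 0.527% of features did upward and 0.284% downward (0.811% in all), or on day 3, when 0.446% did upward and 0.811% downward (1.26% in all). TRDN had been named for this day in earlier results of these data, so the day 6 value is a description.

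**Figure D1:**
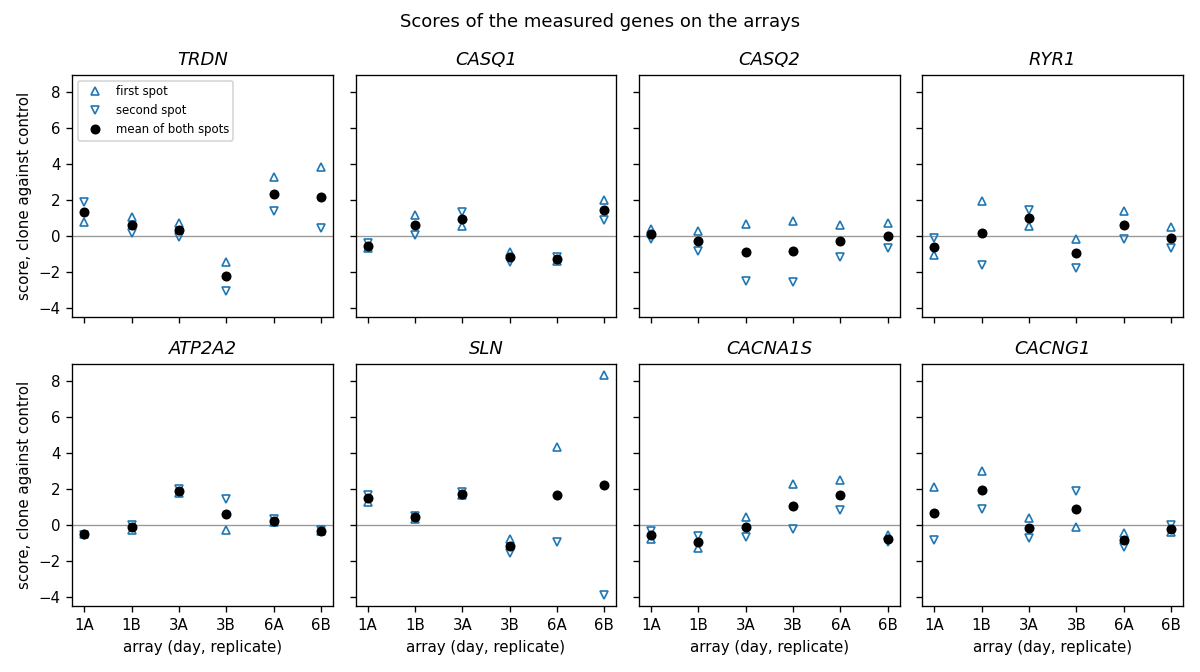
Scores of clone against control (vertical axis, score units) for the 8 measured genes on the 6 arrays (horizontal axis, day and replicate). Triangles are the duplicate spots and black dots their mean; TRDN is at 2.34 and 2.15 on day 6, and the SLN spots of day 6 lie on opposite sides of 0.

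The order of the TRDN day means was day 6, day 1, day 3, and no neighbouring pair in it passed a test. Over the 3 days the mean was 0.76 ± 1.60 (SD, n = 3 days), and the limma fit over all features gave an adjusted p of 0.890 with 5 of 6 arrays above 0. That mean was 0.03 without day 6 and 1.62 without day 3, 0.34 and 1.19 without the day 3 replicate A or B, and 0.28 when the median of 10 neighbouring probes was subtracted. Day 6 exceeded day 3 by 3.18 (SE 0.99), with an adjusted p of 0.296 in limma fitted to the 6 arrays, where the error covers no more than the spread between the dye orientations. The same fit gave 1.25 (SE 0.99, adjusted p = 0.770) for day 6 against day 1 and -1.93 (adjusted p = 0.692) for day 3 against day 1. Day 6 against day 1 was 2.48 from the first spots alone and 0.05 from the second. Day 3 against day 1 was -3.20 without the day 3 replicate A and -0.65 without replicate B. As TRDN had been named for day 6 in earlier results of these data, its differences from day 6 are descriptions too. The day 6 to day 3 difference had an unadjusted p of 0.00593 in limma, the only one of 24 differences between days of the 8 genes with an unadjusted p under 0.05. Of all features, 8.76% reached that level in this contrast and 0.0406% passed after adjustment. For day 3 and day 6 against day 1, 7.62% and 8.27% reached it, and 0 of the 8 genes. Without the day 3 replicate B the TRDN difference between day 6 and day 3 was 1.90, and without the day 3 replicate A it was 4.46.

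The duplicate spots of TRDN differed in size. On day 6 the first spot read 3.26 and 3.83 on replicates A and B, and the second spot 1.41 and 0.48. Both spots were above 0 on both arrays, and only the first reached 2 units. The gap of 3.35 on replicate B was larger than that of 96.8% of all probes on that array, whose median gap was 0.82. On the day 3 replicate B both spots were below 0, at -1.41 and -3.02.

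CASQ1 (Entrez Gene 844) encodes the fast-muscle calsequestrin, the main calcium buffer of the reticulum. Its scores were -0.52 and 0.64 on day 1, 0.96 and -1.14 on day 3, and -1.27 and 1.44 on day 6. The arrays of every day lay on opposite sides of 0, while the 2 spots agreed in sign on all 6 arrays. The day means stayed between -0.09 and 0.09, and their mean was 0.02 ± 0.09 (SD, n = 3 days; adjusted p = 0.996 in limma).

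CASQ2 (Entrez Gene 845), the calsequestrin of slow and cardiac muscle, was the one gene of the 8 with a mean below 0. Its scores were 0.12 and -0.25 on day 1, -0.90 and -0.84 on day 3 and -0.27 and 0.03 on day 6. Both day 3 arrays were lower than all the others, an order whose share among all features was not counted. The mean over the days was -0.35 ± 0.45 (adjusted p = 0.982 in limma). The first spot was above 0 and the second below 0 on 6 of 6 arrays. The second spot alone read -2.46 and -2.52 on day 3, against 0.67 and 0.84 for the first.

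RYR1 (Entrez Gene 6261), the release channel, had scores of -0.58 and 0.18 on day 1, 1.02 and -0.95 on day 3, and 0.61 and -0.08 on day 6. The arrays of each day straddled 0, and its mean was 0.03 ± 0.23 (adjusted p = 0.995 in limma). Its spots had opposite signs on 3 of 6 arrays.

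ATP2A2 (Entrez Gene 488) encodes the SERCA pump of slow and cardiac muscle, which also serves as a housekeeping pump in other cells. Its scores were -0.49 and -0.13 on day 1, 1.89 and 0.59 on day 3, and 0.24 and -0.30 on day 6. Both day 3 arrays lay above all others of the gene, an order whose share among all features was not counted. Day 3 exceeded day 1 by 1.55 without passing (adjusted p = 0.714 in limma), and by 0.90 without the day 3 replicate A. The mean over the days was 0.30 ± 0.83 (adjusted p = 0.983), and -0.17 without day 3.

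SLN (Entrez Gene 6588), the inhibitor of the pumps, averaged 1.07 over the days, above the other 7 genes, an order that changed in several alternatives. ATP2A2 was highest from second spots alone and after subtraction of the 8 probes described further on, TRDN without day 3, and CACNG1 without day 6. The SLN scores were 1.49 and 0.43 on day 1, 1.73 and -1.14 on day 3, and 1.67 and 2.22 on day 6. As for TRDN, 5 of 6 arrays were above 0 and the exception was the day 3 replicate B. The mean of 1.07 ± 0.83 (SD, n = 3 days; 0.63 when day 6 was left out and 0.59 without the day 3 replicate A) had an unadjusted p of 0.0325 and an adjusted p of 0.656 in limma, where 6.65% of all features reached an unadjusted p under 0.05. On day 6 it missed the threshold of 2 units only through replicate A.

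The day 6 scores of SLN average spots that disagree. The first spot read 4.31 and 8.33, and the second -0.96 and -3.88, on replicates A and B. The gap of 12.2 on replicate B was larger than that of 99.9% of probes, and the gap of 5.26 on replicate A larger than that of 96.9%. On days 1 and 3 both SLN spots had the same sign on every array. With the second spots alone the day 6 minus day 1 difference of SLN was -3.38, against 0.99 with both, and the mean over the days was -0.05. With the first spots alone the mean was 2.17. Over the 8 genes, 20 of 48 pairs of spots had opposite signs, or 41.7%, close to the 39.5% over all probes and arrays.

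CACNA1S (Entrez Gene 779), the voltage sensor, had scores of -0.55 and -0.95 on day 1, -0.08 and 1.05 on day 3, and 1.68 and -0.75 on day 6. It was below 0 on both arrays only on day 1, and its mean was 0.06 ± 0.71 (adjusted p = 0.990 in limma). CACNG1 (Entrez Gene 786), the gamma subunit, ran the other way, at 0.66 and 1.97 on day 1, -0.14 and 0.91 on day 3 and -0.80 and -0.19 on day 6. Its arrays were all above 0 on day 1 and all below 0 on day 6, a difference of -1.81 that did not pass (adjusted p = 0.626 in limma). Its spots had opposite signs on 4 of 6 arrays, and on day 1 the first spot read 2.12 and 3.03 and the second -0.81 and 0.91. The difference was -3.08 from first spots, -0.51 from second spots and -1.15 without the day 1 replicate B. The mean of CACNG1 was 0.40 ± 0.90 (adjusted p = 0.982), and -0.06 without day 1. The day means of both subunits crossed 0 in opposite directions, and neither crossing passed. For CACNA1S the day 6 score was -0.75 without the day 6 replicate A and 1.68 without replicate B. With the 10 neighbouring probes subtracted it was -0.24. With the probes 2 and 22 to 26 places away subtracted, as described further on, the CACNA1S day means were -1.31, -0.13 and -0.36. Its day 6 score stayed above 0 from first spots (0.55) and from second spots (0.37).

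**Figure D2:**
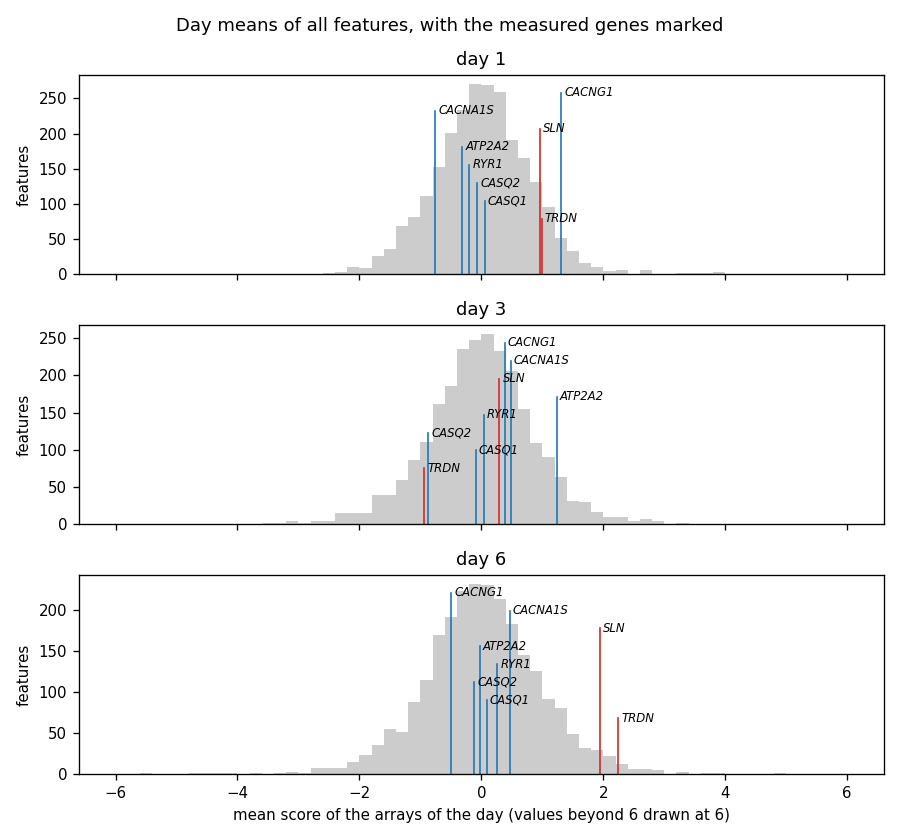
Histograms of the mean score of each day for all 2466 features (horizontal axis, score units; vertical axis, number of features), with lines at the 8 genes, TRDN and SLN in red. Most genes lie inside the bulk of the features; TRDN (2.24) and SLN (1.95) stand in the upper tail on day 6.

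None of the 8 genes passed the shared change over the 3 days in limma, where 0.365% of features did, and 1 had an unadjusted p under 0.05. Of the 8 means, 7 were above 0 and the median was 0.18, beside 1241 of 2466 means above 0 and a median of 0.00 over all features. None had the same sign on 6 of 6 arrays, which 5.52% of features had. The 2 arrays of a day had the same sign for 5 of the 8 genes on day 1, 2 on day 3 and 3 on day 6, against 53.6%, 53.5% and 56.4% of all features. Both arrays were above 0 for 3 genes on day 1 (TRDN, SLN and CACNG1), 1 on day 3 (ATP2A2) and 2 on day 6 (TRDN and SLN), against 26.8%, 26.8% and 28.2% of all features. None of the 24 differences between days passed in limma (adjusted p from 0.296 to 0.999), where 0.162% of features passed for day 3 against day 1 and 0.365% for day 6 against day 1.

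The wider machinery of excitation and calcium handling had 25 measured genes of 100 listed, the 8 included. None passed the shared change. Means were above 0 for 16 and below 0 for 9, with a median of 0.08. Of all 2466 features, 1241 had a mean above 0 and 1225 below, and whether the 25 differ from them was not tested. Among the release channel partners, SPEG, a striated muscle kinase of the triad, averaged 0.61 and stood at 1.15 on day 1. TMEM38A, the potassium channel that balances charge during release, averaged -0.04. In the voltage sensor complex, CACNB1, the beta subunit that carries the channel to the membrane, had scores of 0.15, 1.07, 1.18, 0.30, 0.51 and 0.22. It was the only gene of the 25 with the same sign on 6 of 6 arrays, which 5.52% of all features had. Its mean of 0.57 ± 0.19 had an adjusted p of 0.906 in limma. STAC3, an adaptor that couples sensor and release channel, averaged -0.21 and went from 0.47 on day 1 to -0.90 on day 6.

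Of the 3 genes of triad and T-tubule structure, TCAP and DYSF were low on day 6. TCAP, telethonin, which links the Z-disc to the T-tubule, had scores of 1.44 and 1.33 on day 1, 1.36 and 1.12 on day 3, and -2.39 and -2.06 on day 6. It was therefore at least 2 units lower on both day 6 arrays, as 1.14% of features were, and above 0 on the other 4 arrays. Its day 6 minus day 1 difference was -3.62 (SE 0.87; adjusted p = 0.159 in limma), and its mean over the days 0.13. DYSF, the membrane repair protein dysferlin, averaged -0.64, with 1.81 and 0.10 on day 1 and -2.81 and -1.37 on day 6. TRDN and TCAP were the only genes of the 25 at least 2 units from 0 on both arrays of any day, and they lay on opposite sides of 0 on day 6. TRDN lost this in several alternatives given further on. The single spots of TCAP and its values in those alternatives are not given here.

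At the surface membrane, CHRNA1, the alpha subunit of the muscle acetylcholine receptor, averaged 0.55, and ATP1B1, a sodium pump subunit, averaged -0.49 with -3.75 on the day 3 replicate B. In the cytosol, CAPNS1, the small calpain subunit, averaged 0.17 and PPP3CA, the catalytic subunit of calcineurin, -0.17. None of these passed in limma (adjusted p from 0.934 to 0.983). Of 22 markers of differentiated muscle, 15 were measured, 7 with a mean above 0 and 8 below (median -0.04), from MYH7 at -1.23 to DES at 0.90, and none passed. MYH7, the slow myosin heavy chain, stood out on day 3 at -4.24 and -3.08, when 0.811% of features did downward, and its day 6 minus day 3 difference was 3.83 (adjusted p = 0.132 in limma). MYH1, a fast myosin heavy chain named after its values were seen, read -3.61 and -1.80 on day 3, and its difference was 3.16 (adjusted p = 0.345), beside 3.18 for TRDN. Markers of the same list also went the other way. MB, likewise named after its values were seen, went from 1.18 on day 3 to -2.61 on day 6 (difference -3.80, adjusted p = 0.231 in limma). TNNC1 differed by -1.35. Of 25 markers of other cell types, 7 were measured, 4 above 0 and 3 below (median 0.04), from TAGLN at -0.87 to HBA1 at 1.02, and none passed.

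**Figure D3:**
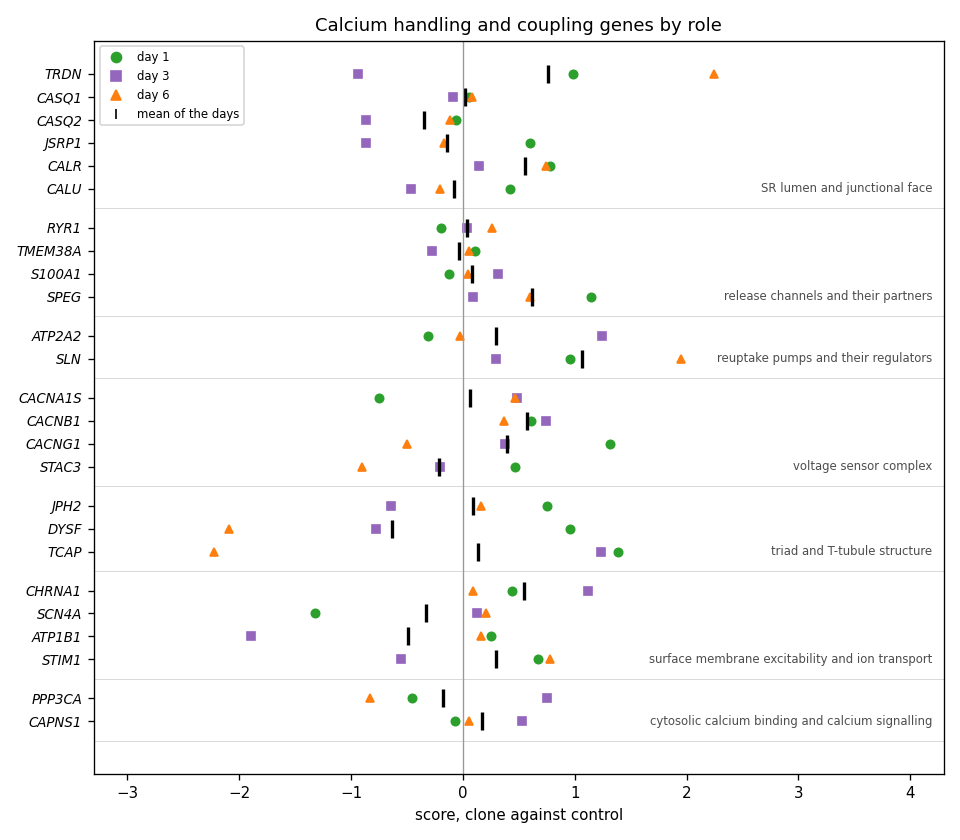
Mean scores of clone against control (horizontal axis, score units) for the 25 measured calcium handling and coupling genes (rows, grouped by role) on day 1, day 3 and day 6, with the mean of the days as a black bar. On day 6 TRDN and SLN lie farthest to the right, and TCAP and DYSF farthest to the left.

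The 5 genes whose 6 scores were closest to those of TRDN, by the root mean square difference over the 6 arrays among 1520 genes, were EEF1G (0.57), UQCR11 (0.58), NDUFB9 (0.73), MGST3 (0.76) and SLN (0.77), against a median of 1.96. All 5 shared the low score on the day 3 replicate B and the high scores on both day 6 arrays. EEF1G, a translation elongation factor subunit, read -1.83 and then 2.47 and 2.17 on those arrays. UQCR11, a subunit of respiratory complex III, read -1.28, 1.85 and 2.04. Of the other genes of the rule, RYR1 came next at place 222 and CACNG1 last at place 1013.

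These 5 genes and TRDN had probes with related spot numbers. How numbers map to places on the slide is unknown here. With probes numbered in spot order, a pair of spots each, TRDN is probe 178 and SLN probe 148, and EEF1G, UQCR11, NDUFB9 and MGST3 have probes 124, 146, 104 and 150. All have even numbers and stand at places 2 to 12 within runs of 24 probes. The NDUFB9 score also averages a probe elsewhere on the array. After these values had been seen, the even-numbered probes from 98 to 180 were divided by that place. The 22 other probes at places 2 to 12, those of the 4 genes just named included, had median scores of 0.40 and 0.00 on day 1, 1.15 and -1.45 on day 3, and 2.10 and 2.08 on day 6. Of these 22, 21 were below 0 on the day 3 replicate B, and 15 and 21 were above 0 on the day 6 arrays. The 18 probes at places 14 to 24 had medians of 1.33 on the day 3 replicate B and -0.70 and 1.28 on day 6. The 24 odd-numbered probes at places 1 to 11, whose numbers alternate with these, had medians of 0.39 on the day 3 replicate B and -1.19 and -2.06 on day 6, where 3 of 24 were above 0 on each array. The other probes at places 2 to 12 belong to genes such as the ATP synthase subunit ATP5MC2 and to probes with no gene name.

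**Figure D4:**
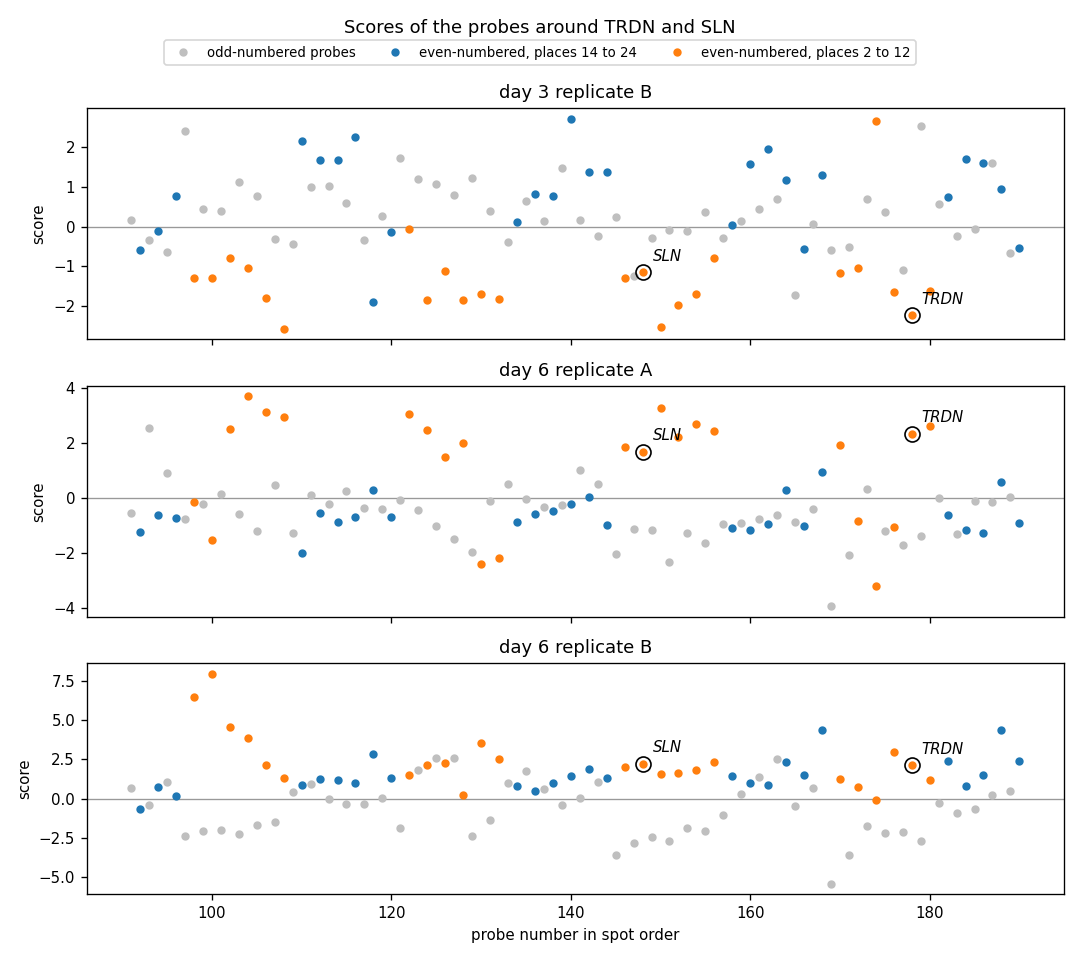
Scores (vertical axis, score units) of probes 91 to 190 in spot order (horizontal axis) on the day 3 replicate B and both day 6 arrays, coloured by number and by place within runs of 24 probes. TRDN and SLN (circled) lie among even-numbered probes at places 2 to 12, whose medians were -1.45 on the day 3 replicate B and 2.10 and 2.08 on day 6.

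The same spacing recurred over the whole array. Scores of probes 24 places apart correlated across 2664 pairs at a Spearman's rho of 0.06 to 0.31 on the 6 arrays (median 0.19), those 2 places apart at 0.10 to 0.35, and those 23 places apart at -0.10 to 0.11. These are descriptions across probes, which share an array and are not independent. When the median of the 8 probes lying 2, 22, 24 and 26 places away on either side was subtracted, TRDN stood at 1.63 and 0.73 on day 6, -0.48 and -0.60 on day 3, and 1.08 and 0.07 on day 1. SLN then stood at -0.21 and 0.67 on day 6 and at 0.56 and -0.02 on day 3. The TRDN difference of day 6 was then 0.60 from day 1 and 1.72 from day 3. TRDN no longer reached 2 units on either day 6 array, and SLN was below 0 on one of them. Of the 8 probes subtracted from TRDN, 5 have numbers between 98 and 180. With the median of these 5 alone subtracted, TRDN stood at -0.09 and 0.34 on day 6 and at -0.85 and -0.57 on day 3. The probes left out, those of FHL3 and MYH7 and an unnamed one, were all below 0 on both day 6 arrays. As the range of numbers was set after the values had been seen, a day 6 value near 0 follows largely from that choice and is a description. Of the 17 features at least 2 units higher on both day 6 arrays, 4 lay among the 24 probes at places 2 to 12 (0.973% of all features), TRDN, ATP5MC2, EEF1G and an unnamed probe. The part of spot position in the day 6 scores of TRDN and SLN was not tested.

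**Figure D5:**
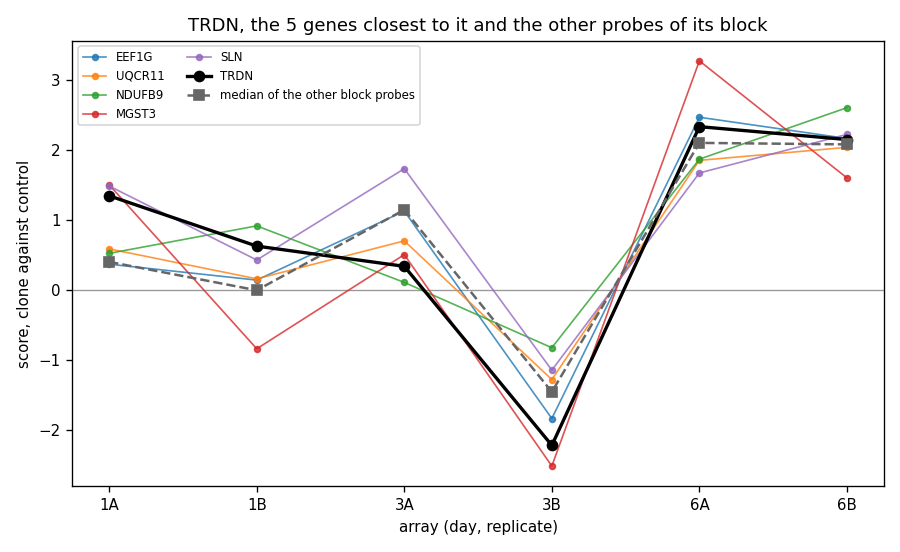
Scores (vertical axis, score units) on the 6 arrays (horizontal axis, day and replicate) of TRDN in black, of the 5 genes closest to it in colour, and of the median of the 22 other probes of the same places as a dashed line. The dashed line reads -1.45 on the day 3 replicate B and 2.10 and 2.08 on day 6, where TRDN reads -2.22, 2.34 and 2.15.

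The other 6 genes lay outside that group of probes. The same subtraction was made for them. ATP2A2 on day 3 stood at 1.99 and 0.42 after subtraction, against 1.89 and 0.59 before. CACNG1 on day 1 stood at 0.12 and 1.99, against 0.66 and 1.97, and on day 6 at -0.32 and -0.42, against -0.80 and -0.19. CASQ2 on day 3 stood at -0.10 and -0.46, against -0.90 and -0.84. Other values changed sign. On the day 3 replicate B CACNA1S went from 1.05 to -0.04. On the day 6 replicate B RYR1 went from -0.08 to 0.44 and CASQ2 from 0.03 to -0.27. On the day 3 replicate A CACNG1 went from -0.14 to 0.25. None of the 8 genes passed limma's shared test under this setting.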

How the data were processed

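Total RNA had been purified with Trizol, reverse transcribed, labelled with a tyramide kit and hybridised to a 2-colour muscle array, per the labels' protocols. The authors deposited a score per spot for 6 arrays. Its filters, normalisation and scale are not given in these sources. Signal over background is unknown, since spot intensities were not analysed. The 2 spots of a probe were averaged, then the probes of a gene, named through a platform annotation table, and each array was centred on its median. limma 3.58.1 in R 4.3.3 fitted all 2466 features on the 3 day means (shared change) and the 6 arrays (days), with Benjamini-Hochberg adjustment and a threshold of 0.05. The fits were run on simulated scores with independent noise of equal variance and large shifts. That checks the code, and does not cover the noise of these arrays, where scores correlate with spot number. Within a day, scores of at least 2 units on both arrays were counted. The genes, lists and thresholds were chosen with earlier results of these data known; named were all genes of the rule, per list those with 1 sign on 6 arrays and the highest and lowest, and the 5 genes closest to TRDN. Chosen after seeing the data were the use of first or second spots alone and the subtraction of 8 probes or 5 of them. Figures used matplotlib 3.10.9.

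Replicate letters mark the dye orientation in every day. Deviations of replicate A from the day mean did not correlate between days (-0.04 to 0.00 across features). Both arrays of a day compare the same cells, so this cannot show whether samples were paired between days.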

Additional observations from a re-analysis of the deposited data

Results flagged for a closer look

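Some genes had all arrays of a day on the opposite side of 0 from all arrays of another day. Between day 1 and day 3 this held for 14.2% of all features, between day 1 and day 6 for 15.6%, and between day 3 and day 6 for 13.5%. Genes of the marker lists that met the same rule are not listed. The following 11 differences are those among the 25 measured calcium handling genes, and are read against these shares. Each was tested in the limma fit of the 6 arrays and none passed (adjusted p from 0.156 to 0.977).

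From day 1 to day 3, ATP2A2 differed by 1.55 and CAPNS1 by 0.59, both upward, while JSRP1, a junctional protein of the reticulum, differed by -1.47 and JPH2, the junctophilin that holds the membranes of the junction together, by -1.39. From day 1 to day 6, CACNG1 differed by -1.81, STAC3 by -1.37, DYSF by -3.05, JSRP1 by -0.77 and TCAP by -3.62, while CAPNS1 differed by 0.12. From day 3 to day 6, TCAP differed by -3.47. JSRP1 and JPH2 are named here for these values, after they were seen.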

How the results depend on the processing

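In 312 tests of single genes of the rule under an alternative, 0 passed in limma. The lowest adjusted p in limma was 0.104, for TRDN between day 6 and day 3 with the 10 neighbouring probes subtracted (difference 3.86). The first or second spots alone and the subtraction of 8 probes 2 and 22 to 26 places away, or of 5 of them, were chosen after seeing the data. The TRDN score of day 6 was 2.08 with arrays scaled, 1.94 with the 10 neighbouring probes subtracted, 1.18 with the 8 probes subtracted, 3.11 from first spots and 1.38 from second spots. The count of genes of the rule at least 2 units from 0 on both day 6 arrays was 1, and became 0 with arrays scaled, with either subtraction and from second spots, and 2 from first spots. With a threshold of 1 or 1.5 units it was 2, and with 3 units 0. On day 3 it became 1 from second spots (CASQ2). Shares of all features were not counted at these other thresholds and settings, so the counts cannot be compared with the whole array. The features passing the shared change numbered 9. They were 4 with the 10 neighbours subtracted, 2 among genes only, 16 from first spots, 4 from second spots, 29 without day 1, 0 without day 3 and 0 without day 6, and 0 to 8 without single arrays. Between day 6 and day 1, 9 features differed, against 14 with the 10 neighbours subtracted, 15 with separate probes, 3 from second spots, 5 without day 3, and 0 to 28 without single arrays. With the replicate letter as a replicate block, 5 features differed between day 6 and day 1. For the shared change the block needs 6 separate arrays, which gave 10 without it and 5 with it. No call of a gene of the rule changed under the block. A lone array of a day is assumed to vary like those of the other days.

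Several values changed sign, among them the highest mean (SLN, 1.07) and the SLN differences of day 6 from day 1 (0.99) and day 3 (1.65). With the 10 neighbours subtracted RYR1 was -0.0091, CACNA1S -0.20 and CACNG1 -0.13, and SLN differed by -0.056 between day 6 and day 1. With the 8 probes subtracted CASQ1 was -0.041 and CACNA1S -0.60, and SLN on day 6 differed by -0.55 from day 1 and -0.039 from day 3. From first spots CASQ1 was -0.21, CASQ2 0.23 and ATP2A2 -0.25. From second spots RYR1 was -0.13 and SLN -0.053, and SLN on day 6 differed by -3.38 from day 1 and -2.42 from day 3. Without day 1, CASQ1 was -0.0021 and CACNG1 -0.058. Without day 3, ATP2A2 was -0.17 and CACNA1S -0.15. Without day 6, CASQ1 was -0.016, RYR1 -0.081 and CACNA1S -0.14. Without single arrays, CASQ1 ranged from -0.43 to 0.47, RYR1 ranged from -0.29 to 0.36 and CACNA1S ranged from -0.34 to 0.47. SLN's day 3 minus day 1 difference ranged from -2.10 to 0.78. The causes were not tested.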
